A study of Homo sapiens with 6 samples.

Results

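The genes described here encode actin-binding and contractile proteins that are known as targets of serum response factor (SRF): TAGLN, TAGLN2, ACTA2, ACTG2, CNN1, TPM1, TPM2, MYL9, CALD1 and MSN. They are 10 of the 11963 genes that had a probe set of their own on the arrays. They were taken by symbol from the platform annotation. All 10 were measured, by 23 probe sets, and each gene is given by its brightest probe set, chosen by the mean log2 level of all 6 arrays, with the other 13 beside it. SRF binding was not measured, so the name of the list is background. The list was drawn up with earlier results of these arrays known, so the differences below are descriptions of 10 chosen genes and support nothing beyond them.

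A549, an established human lung adenocarcinoma cell line of epithelial origin, was studied with 6 Affymetrix arrays, 2 for each of 3 groups. The first group was transfected with a pCMV5 plasmid encoding human PIAS3, an inhibitor of the transcription factor STAT3. The next received an siRNA against STAT3. The last was the control, named in its labels as EGF-stimulated. According to the design text all 3 groups went through serum-free medium and EGF, whereas the labels name EGF for the controls alone and call them untreated. Before any treatment all cells had spent 12 h in flasks with 10% FBS. RNA of the PIAS3 and siRNA groups was taken 48 h after transfection. For the control arrays no such time is given, so time in culture may also differ between them and the other groups. No empty plasmid and no control siRNA is among these groups, so the act of transfection and the agent that was transfected cannot be told apart. Separate cultures behind the 2 arrays of a group are not named in the labels, so each p-value speaks of array-to-array spread alone, and that spread may be technical.

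SRF is a transcription factor that binds a DNA element called the CArG box. Its coactivators of the MRTF family are held in the cytoplasm by free actin monomers and enter the nucleus when actin is drawn into filaments, so that genes for actin filament proteins are read according to the state of the filaments. A separate set of partners, the ternary complex factors, links SRF to ERK signalling and to the immediate early genes that growth factors such as EGF turn on. Most of the listed genes are best known as markers of smooth muscle and myofibroblasts, and several of them are also expressed in cultured epithelial cells.

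A few facts of the whole series bear on these genes. The PIAS3 probe set read 7.78 and 7.72 on the log2 scale in the arrays labelled PIAS3, 7.50 and 7.64 in the STAT3 siRNA arrays and 7.70 and 7.71 in the control arrays, a difference of 0.04 ± 0.11 (SE) between PIAS3 and control arrays. No source used here says whether this probe set can read the plasmid's transcript, and the group names are those of the labels. STAT3 itself read 10.23 and 9.94 in the STAT3 siRNA arrays, against 10.50 and 10.43 in the control arrays, a difference of -0.38 ± 0.18, and it read 10.18 and 9.70 in the PIAS3 arrays. PIAS3 replicate 1 stood apart: its differences from the other 5 arrays had an SD over probe sets of 0.35 to 0.44, against 0.15 to 0.28 for every pair without it. Its poly-A spike-in probe sets read 1.41 above the control mean, against -0.36 to 0.03 in the other 5 arrays. The excess of the 3' over the 5' actin control probe set was 0.43 and 0.28 for PIAS3, 0.16 and 0.23 for STAT3 siRNA and 0.12 and 0.10 for control arrays, so by actin the PIAS3 arrays stood highest and the control arrays lowest. The same excess for the GAPDH control probe sets was 0.40 and 0.37 for PIAS3, 0.29 and 0.40 for STAT3 siRNA and 0.36 and 0.29 for control arrays, where the groups overlapped. The part of RNA quality in the results was not tested.

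Promoters of the listed genes were searched for the CArG box, which is CC, 6 bases of A or T, and GG, and which reads the same pattern on both strands. The windows, from RefSeq (GRCh38.p14), run from 250 bases before to 50 bases after a gene's start, and 8 of the 10 genes had one, in 16 windows. TAGLN and MYL9 had none in the table. ACTG2, the enteric smooth muscle actin, held 2 exact boxes, whose first bases lie 110 and 73 bases before the start. ACTA2, the aortic smooth muscle actin, held 2 boxes with 1 base of the core other than A or T, at 121 and 71 bases before the start, and CALD1 held 1 such box at 26 bases. The first 2 of these promoters are shown because they hold a pair of boxes each. The 250 bases before the start are printed 5' to 3' on the gene's strand, with the boxes in capitals.
ACTG2, chr2:73892758-73893007, plus strand: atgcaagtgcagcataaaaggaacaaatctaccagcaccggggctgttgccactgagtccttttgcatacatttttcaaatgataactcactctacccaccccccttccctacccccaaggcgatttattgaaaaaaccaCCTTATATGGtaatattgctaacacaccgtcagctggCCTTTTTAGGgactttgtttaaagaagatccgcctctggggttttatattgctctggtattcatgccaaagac
ACTA2, chr10:88952774-88953023, minus strand: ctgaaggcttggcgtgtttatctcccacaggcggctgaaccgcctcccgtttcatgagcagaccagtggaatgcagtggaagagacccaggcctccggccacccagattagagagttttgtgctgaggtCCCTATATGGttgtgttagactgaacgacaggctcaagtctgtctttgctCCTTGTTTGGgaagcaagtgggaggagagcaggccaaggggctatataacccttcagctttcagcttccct
Exact boxes were present in 6.25% of the 16 windows of the listed genes and in 1.29% of all 35116 windows in the table. Boxes with 1 such mismatch were present in 12.5% and in 6.94% of them. A match is a run of letters in this window and does not show that SRF binds there.

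The members of the calponin and transgelin family bind along actin filaments. TAGLN, which encodes transgelin (SM22), read 6.79 and 8.89 in the PIAS3 arrays, 10.76 and 8.52 in the STAT3 siRNA arrays and 10.12 and 10.09 in the control arrays. Both PIAS3 arrays lay below both control arrays, the siRNA arrays lay on either side of them, and the value of siRNA replicate 2 lay between those of the PIAS3 arrays. The PIAS3 arrays were lower than the controls by a log2 difference of -2.27 ± 0.81 (SE), a 4.81-fold lower mean level, with an adjusted p of 0.280 in limma. This was -1.22 without PIAS3 replicate 1 and -3.31 without PIAS3 replicate 2, so its size depended on the array. Against STAT3 siRNA, PIAS3 stood at -1.80 ± 0.81, and the groups overlapped. This was -0.75 without PIAS3 replicate 1, -2.85 without PIAS3 replicate 2, -0.68 without siRNA replicate 1 and -2.92 without siRNA replicate 2. STAT3 siRNA minus control was -0.47 ± 0.81, and it was 0.65 without siRNA replicate 2 and -1.58 without siRNA replicate 1, so that its direction depended on the array. In bulk samples such as these, fewer cells of a type and less RNA per cell cannot be told apart.

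TAGLN2, the transgelin of non-muscle cells, read 11.78 and 12.16 in the PIAS3 arrays, 12.50 and 12.25 in the STAT3 siRNA arrays and 12.41 and 12.43 in the control arrays. The PIAS3 arrays were the lowest 2 of the 6, and the siRNA arrays lay around the controls. The PIAS3 minus control difference was -0.45 ± 0.16 (adjusted p = 0.267 in limma), and the second, dimmer probe set of the gene gave -0.52 ± 0.18. The -0.45 was -0.26 without PIAS3 replicate 1 and -0.64 without PIAS3 replicate 2. CNN1, calponin 1 of smooth muscle, had another pattern. It read 5.36 and 5.32 in the PIAS3 arrays, 5.08 and 4.80 in the STAT3 siRNA arrays and 5.26 and 5.26 in the control arrays. Here the STAT3 siRNA arrays were the lowest, with a difference of -0.32 ± 0.12 from control, whereas the PIAS3 arrays were 0.08 ± 0.12 above control and 0.40 ± 0.12 above siRNA.

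The smooth muscle actins ACTA2 and ACTG2 form the contractile filaments of vessel and gut wall. ACTA2 read 8.75 and 8.20 in the PIAS3 arrays, 8.21 and 7.84 in the STAT3 siRNA arrays and 8.36 and 8.33 in the control arrays. The PIAS3 arrays lay on either side of the controls, and both siRNA arrays lay below them. PIAS3 minus control was 0.13 ± 0.20, and it was -0.15 without PIAS3 replicate 1, so no direction can be given. STAT3 siRNA minus control was -0.32 ± 0.20. The other ACTA2 probe set, between 3.71 and 4.12 on all 6 arrays, was near the 3.26 to 3.93 of 3 control probe sets for transcripts that human cells lack, and gave 0.31 ± 0.11 for PIAS3 minus control. ACTG2 read 5.89 and 5.93 in the PIAS3 arrays, 6.03 and 6.11 in the siRNA arrays and 6.08 and 6.09 in the control arrays. The PIAS3 minus control difference was -0.17 ± 0.10, and its siRNA minus control difference was -0.01 ± 0.10. Actin genes are near copies of each other, so probes may not tell them apart.

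**Figure D1:**
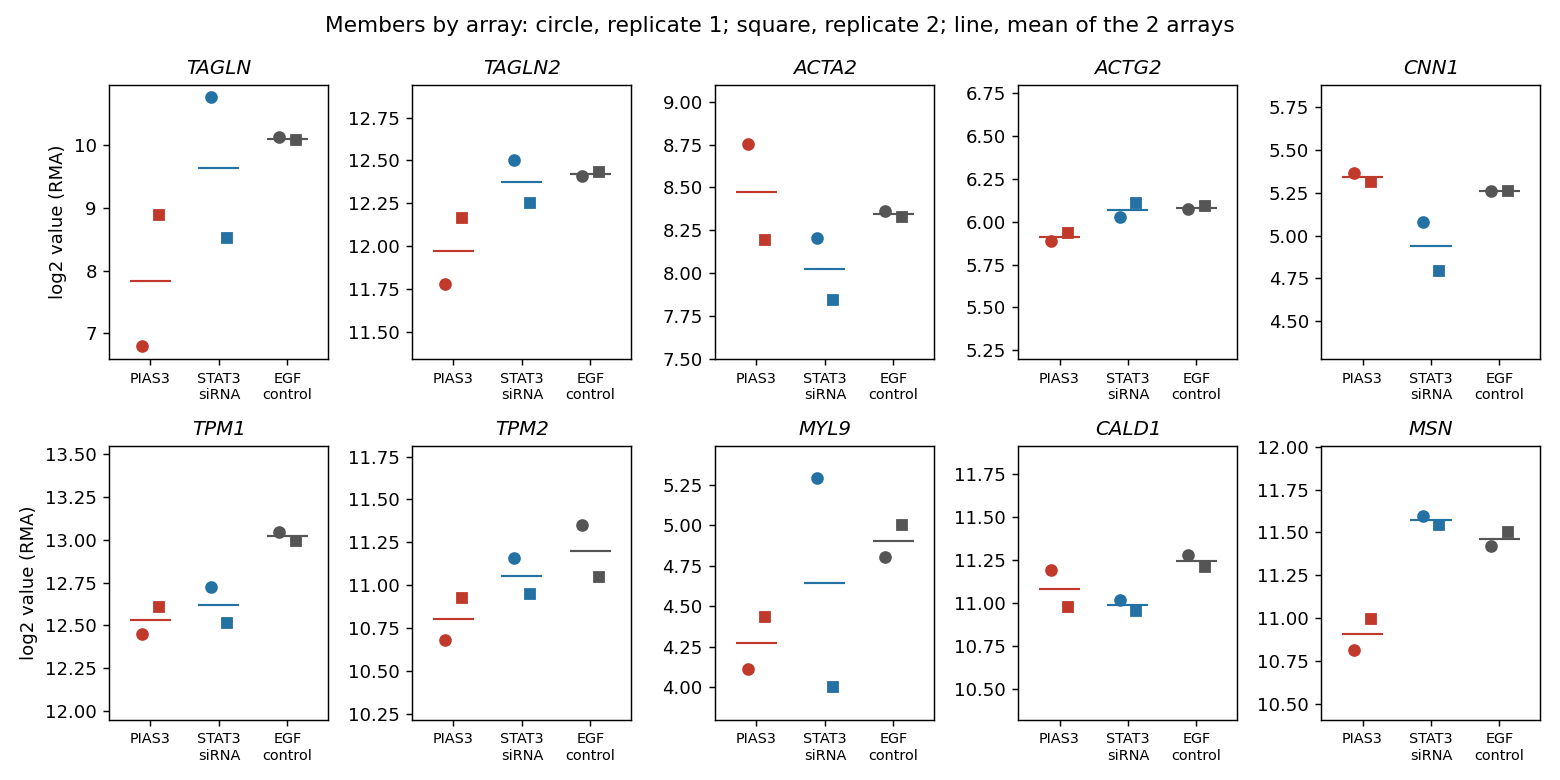
Log2 RMA value of each of the 10 genes on each array, in 1 panel per gene with its own axis; circles are replicate 1, squares are replicate 2 and lines are the mean of 2 arrays, with PIAS3, STAT3 siRNA and EGF control from left to right. TAGLN spans 6.79 to 10.76, and the 2 controls of a gene lie close together, farthest apart for TPM2 at 11.35 and 11.05.

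Tropomyosins lie in the groove of the actin filament and, with caldesmon, set how myosin reaches it. TPM1 read 12.45 and 12.61 in the PIAS3 arrays, 12.72 and 12.51 in the STAT3 siRNA arrays and 13.05 and 12.99 in the control arrays. All 4 transfected arrays lay below both controls. PIAS3 minus control was -0.49 ± 0.12 (adjusted p = 0.150 in limma) and siRNA minus control was -0.40 ± 0.12 (adjusted p = 0.881), and the 2 transfected groups differed by -0.09 ± 0.12. TPM2 read 10.68 and 10.93 in the PIAS3 arrays, 11.16 and 10.95 in the siRNA arrays and 11.35 and 11.05 in the control arrays. The PIAS3 arrays were the lowest 2, with a difference of -0.40 ± 0.15 from control, and the siRNA arrays overlapped the controls at -0.15 ± 0.15. CALD1, caldesmon, read 11.19 and 10.98 in the PIAS3 arrays, 11.02 and 10.96 in the siRNA arrays and 11.28 and 11.21 in the control arrays. The brightest probe set gave -0.16 ± 0.12 for PIAS3 minus control and -0.26 ± 0.12 for siRNA minus control.

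MYL9, the regulatory light chain of smooth muscle and non-muscle myosin II, was dim. It read 4.11 and 4.44 in the PIAS3 arrays, 5.29 and 3.999 in the STAT3 siRNA arrays and 4.81 and 4.9995 in the control arrays, of which the lowest values are close to the absent-transcript control probe sets. As for TAGLN, siRNA replicate 1 was the highest array and both PIAS3 arrays lay below both controls, and the lowest array was siRNA replicate 2. PIAS3 minus control was -0.63 ± 0.37, siRNA minus control was -0.26 ± 0.37 and PIAS3 minus siRNA was -0.37 ± 0.37. None of these passed an unadjusted p of 0.05.

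MSN encodes moesin, which links the plasma membrane to the actin cortex and is the one member of the ezrin, radixin and moesin family listed. It read 10.81 and 10.997 in the PIAS3 arrays, 11.60 and 11.54 in the STAT3 siRNA arrays and 11.42 and 11.50 in the control arrays. The PIAS3 arrays were the lowest 2 and the siRNA arrays the highest 2, without overlap. PIAS3 minus control was -0.56 ± 0.11 (adjusted p = 0.106 in limma) and PIAS3 minus siRNA was -0.67 ± 0.11 (adjusted p = 0.607). The 0.106 was the smallest adjusted p of the 10 genes in PIAS3 minus control. Without PIAS3 replicate 2, which leaves 1 PIAS3 array that is assumed to vary like the others, they were -0.65 (adjusted p = 0.0352) and -0.76 (adjusted p = 0.0368). Without PIAS3 replicate 1 they were -0.47 (adjusted p = 0.263) and -0.57 (adjusted p = 0.890). The STAT3 siRNA minus control difference was 0.11 ± 0.11. Ezrin (EZR) and radixin (RDX) stood at -0.29 ± 0.12 and -0.25 ± 0.15 for PIAS3 minus control. They were at -0.17 ± 0.12 and -0.14 ± 0.15 for siRNA minus control. For PIAS3 minus siRNA they were at -0.11 ± 0.12 and -0.11 ± 0.15, with overlapping arrays. Neither was among the 3 genes of smallest p in its list.

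**Figure D2:**
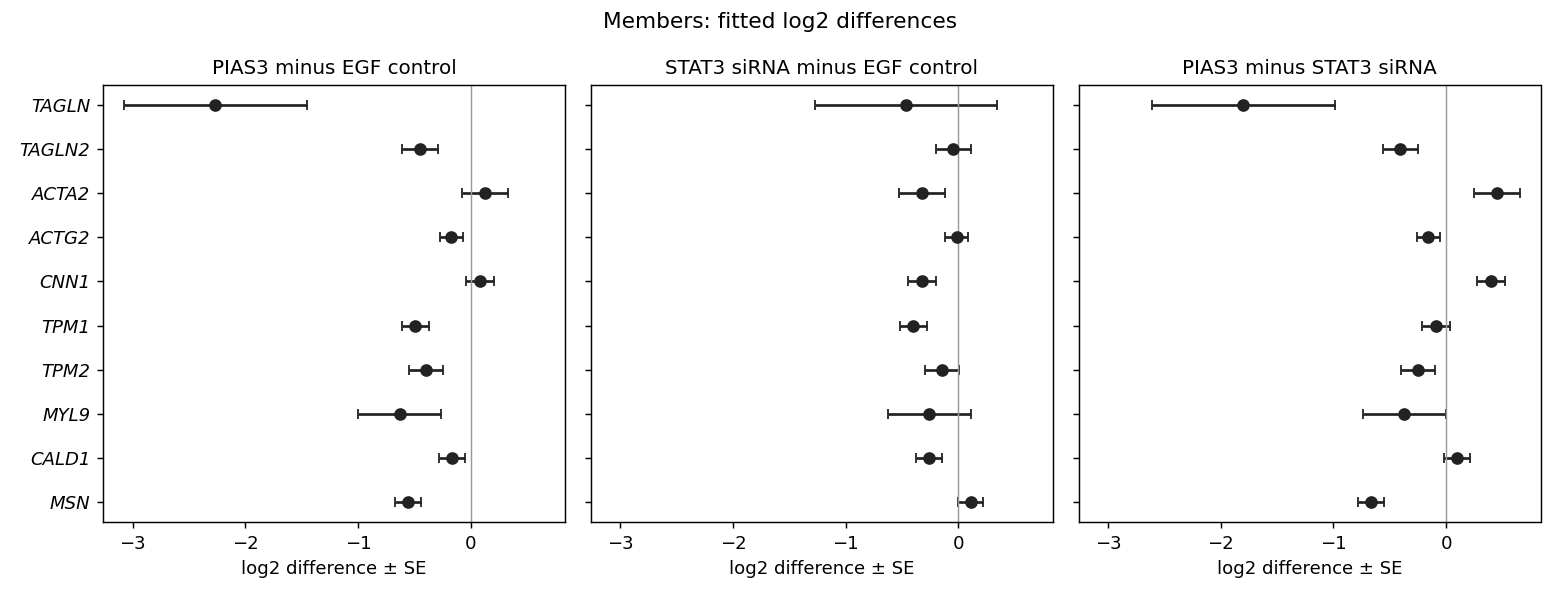
Fitted log2 difference of each of the 10 genes with its standard error, in 3 panels for PIAS3 minus EGF control, STAT3 siRNA minus EGF control and PIAS3 minus STAT3 siRNA. TAGLN lies farthest from 0 in all 3 panels and has the widest error, and MSN stands at -0.56 and -0.67 in the panels with PIAS3 and at 0.11 in the other.

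None of the 10 genes passed an adjusted p of 0.05 in limma in any of the 3 comparisons. In PIAS3 minus control, 22 of 22215 probe sets passed, which is 0.099%. By unadjusted p under 0.05, 5 of the 10 were lower (TAGLN, TAGLN2, TPM1, TPM2 and MSN) and 0 were higher, beside 7.44% of all 11963 genes lower and 7.13% higher. Both PIAS3 arrays lay below both controls in 8 genes and above them in 1, beside 23.7% and 22.4% of all genes. The median difference was -0.42, against -0.0043 over all genes. Without PIAS3 replicate 1 it was -0.27, with 9 of the 10 below 0 and 2 lower by unadjusted p, beside 4.87% of all genes. The lower genes numbered 2 without control replicate 1 and 3 without control replicate 2, beside 3.69% and 3.12% of all genes.

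For STAT3 siRNA minus control, 1 of 22215 probe sets passed the adjusted threshold, or 0.0045%. Of the 10 genes, 2 (CNN1 and TPM1) were lower and 0 higher by unadjusted p, beside 3.06% and 2.32% of all genes. These calls depended on the array that was left out. CNN1 stood at -0.18 without siRNA replicate 2 and -0.46 without siRNA replicate 1, and TPM1 at -0.30 and -0.51. Both siRNA arrays lay below both controls in 4 of the 10 genes (ACTA2, CNN1, TPM1 and CALD1) and above them in 1 (MSN), beside 19.5% and 19.4% of all genes. The median difference of -0.26 set beside -0.0015 over all genes was -0.05 without siRNA replicate 2 and -0.38 without siRNA replicate 1. Both contrasts with control share the control arrays.

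PIAS3 minus STAT3 siRNA gave 0 of 22215 probe sets past the adjusted threshold, or 0.0%, although by unadjusted p under 0.05 limma called 793 probe sets higher and 1006 lower. Of the 10 genes, 2 were lower (TAGLN2 and MSN) and 1 was higher (CNN1) by unadjusted p, beside 3.83% and 4.19% of all genes. These calls depended on the array that was left out. The PIAS3 arrays lay below both siRNA arrays in 4 genes (TAGLN2, ACTG2, TPM2 and MSN) and above them in 1 (CNN1), beside 17.5% and 17.0% of all genes. The median difference was -0.21, against -0.0016 over all genes, and it was -0.07 without siRNA replicate 1 and -0.28 without siRNA replicate 2.

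By array, the median of the 10 genes relative to the control mean was -0.55 and -0.27 in the PIAS3 arrays, -0.05 and -0.38 in the siRNA arrays and 0.01 and -0.01 in the control arrays. The genes below the control mean numbered 8 and 9 for the PIAS3 arrays, and 6 and 8 for the siRNA arrays. By this median siRNA replicate 2 lay between the PIAS3 arrays and siRNA replicate 1 near the controls. Single genes could differ: siRNA replicate 2 lay above both controls for MSN and below all other arrays for CNN1 and ACTA2. Over all probe sets the 2 arrays labelled siRNA differed with an SD of 0.25. For siRNA replicate 2 the SD was 0.19 from PIAS3 replicate 2, 0.36 from PIAS3 replicate 1 and 0.26 from either control. For siRNA replicate 1 it was 0.21 from control replicate 1 and 0.20 from control replicate 2.

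The other probe sets of the genes with several gave further views. Of the 13, 10 were below 0 in PIAS3 minus control, with a median of -0.38, and 6 were lower and 1 higher by unadjusted p, beside 7.86% lower and 6.0% higher of all 22215 probe sets. TPM1 was at -0.55 ± 0.12 and -0.84 ± 0.20 by 2 bright probe sets and at -0.23 ± 0.32 by the fourth. The second probe set of TPM2 gave -0.41 ± 0.20. The 7 other probe sets of CALD1 ranged between -0.51 and 0.05, and those of mean level under 5 were the 2 above 0. A brighter probe set need not read the same transcripts as a dimmer one, since these genes make several isoforms.

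**Figure D3:**
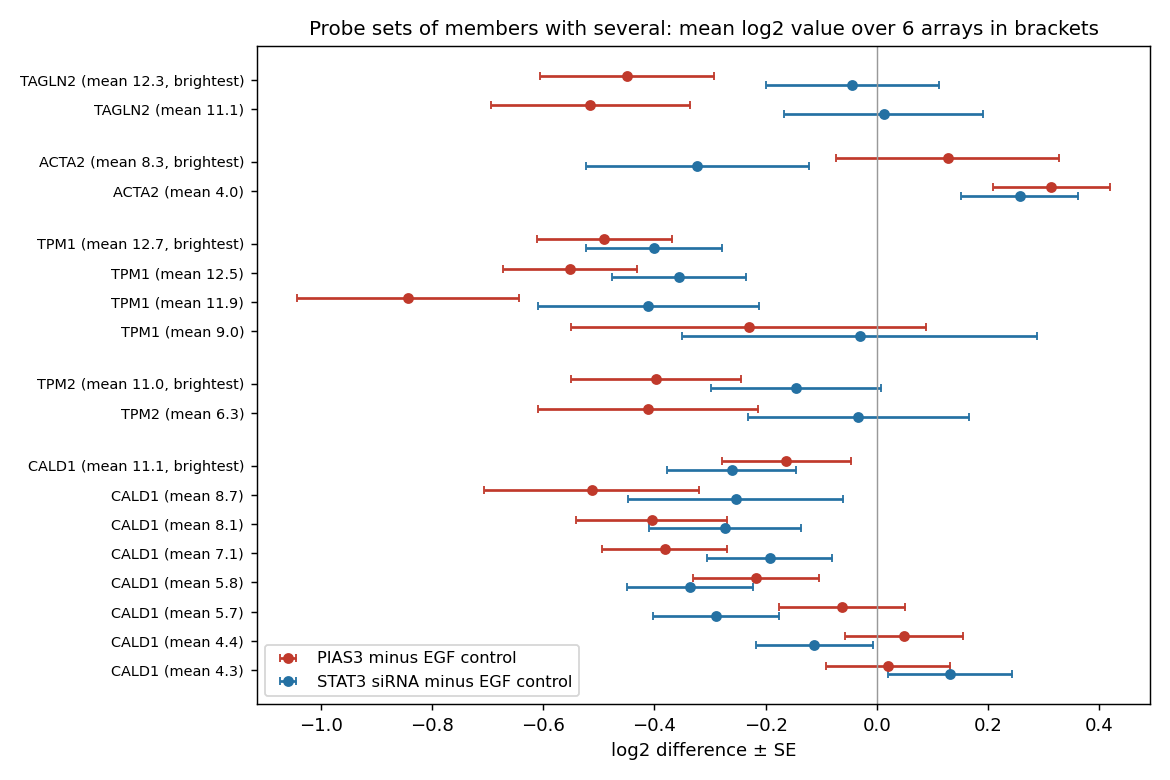
Log2 difference with standard error for every probe set of the 5 genes that have several, for PIAS3 minus EGF control in red and STAT3 siRNA minus EGF control in blue, with the mean log2 value of each probe set in brackets. The probe sets of TAGLN2 and TPM2 give like differences, while those of CALD1 spread between -0.51 and 0.05 in PIAS3 minus control.

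The other genes of the pathway were described from 4 lists, of which 60 of 69 genes had a probe set of their own, and 0 of 60 passed the adjusted threshold in any of the 3 comparisons. In SRF, its coactivators and actin regulators, 18 of 19 were measured. By unadjusted p, 2 were lower and 1 was higher in PIAS3 minus control, beside 7.44% and 7.13% of all genes, and the median was -0.13. The lower ones numbered 6 without PIAS3 replicate 2, 0 without control replicate 1 and 1 without control replicate 2. SRF itself read 7.26 and 7.54 in the PIAS3 arrays, 7.52 and 7.42 in the siRNA arrays and 7.995 and 7.83 in the control arrays. The differences from control were -0.51 ± 0.13 for PIAS3 and -0.44 ± 0.13 for siRNA. MRTFB, a coactivator of SRF, stood at -0.35 ± 0.13 in PIAS3 minus control, and ROCK1, a kinase that promotes actomyosin contraction, at 0.26 ± 0.11. ELK3, a ternary complex factor, stood at -0.22 ± 0.11 in siRNA minus control. Between PIAS3 and siRNA, ROCK2 stood at 0.36 ± 0.17, LIMK1, a kinase that inactivates cofilin, at -0.30 ± 0.14 and PFN1, the actin monomer binding protein profilin, at -0.27 ± 0.14.

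Among other cytoskeletal and adhesion targets of SRF, 19 of 24 were measured. In each contrast with control 17 of the 19 were below 0, and 0 passed the adjusted threshold. By unadjusted p, 15 were lower and 1 was higher in PIAS3 minus control, beside 7.44% and 7.13% of all genes. In siRNA minus control 9 were lower and 1 higher, beside 3.06% and 2.32%, and in PIAS3 minus siRNA 3 were lower and 1 higher, beside 3.83% and 4.19%. The medians were -0.50, -0.38 and -0.25 in that order. Without PIAS3 replicate 1, 11 were lower in PIAS3 minus control, beside 4.87% of all genes, with a median of -0.47. Without control replicate 1, 7 were lower, beside 3.69%, and without control replicate 2, 10 were lower, beside 3.12%. In siRNA minus control, 9 were lower without siRNA replicate 1, beside 4.96% of all genes, 5 without siRNA replicate 2, beside 2.25%, and 3 without control replicate 1, beside 1.18%. In PIAS3 minus siRNA the count of lower genes depended on the array. The median was -0.14 without siRNA replicate 1, -0.31 without siRNA replicate 2, -0.10 without PIAS3 replicate 1 and -0.36 without PIAS3 replicate 2.

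FERMT2, the focal adhesion adaptor kindlin-2, read 9.60 and 9.76 in the PIAS3 arrays, 10.08 and 9.83 in the siRNA arrays and 10.55 and 10.52 in the control arrays. All 4 transfected arrays lay below both controls, by -0.86 ± 0.13 for PIAS3 (adjusted p = 0.0784 in limma) and by -0.58 ± 0.13 for siRNA (adjusted p = 0.601). The same order held for VCL (vinculin), at -0.88 ± 0.15 and -0.52 ± 0.15, and for MYH9, the non-muscle myosin IIA heavy chain, at -0.77 ± 0.13 and -0.42 ± 0.13. TGFB1I1, the adhesion protein Hic-5, was at -0.96 ± 0.17 for PIAS3 and -0.70 ± 0.17 for siRNA. LIMA1, which bundles actin filaments, was lower in the siRNA group, at -0.62 ± 0.21 for PIAS3 and -0.97 ± 0.21 for siRNA. ZYX, zyxin of focal adhesions, was at -0.71 ± 0.13 for PIAS3 and -0.30 ± 0.13 for siRNA, and PIAS3 minus siRNA was -0.41 ± 0.13. PDLIM7, a PDZ and LIM domain protein of the filaments, read 7.64 and 8.93 in the PIAS3 arrays, 9.98 and 9.06 in the siRNA arrays and 10.48 and 10.46 in the control arrays. The differences were -2.19 ± 0.43 for PIAS3 minus control, -0.95 ± 0.43 for siRNA minus control and -1.24 ± 0.43 for PIAS3 minus siRNA. PDLIM5 and TLN1 were the 2 of the 19 with positive differences from control in both groups, at 0.88 ± 0.19 and 0.15 ± 0.11 for PIAS3 and at 0.37 ± 0.19 and 0.41 ± 0.11 for siRNA, and were named after their values were seen.

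**Figure D4:**
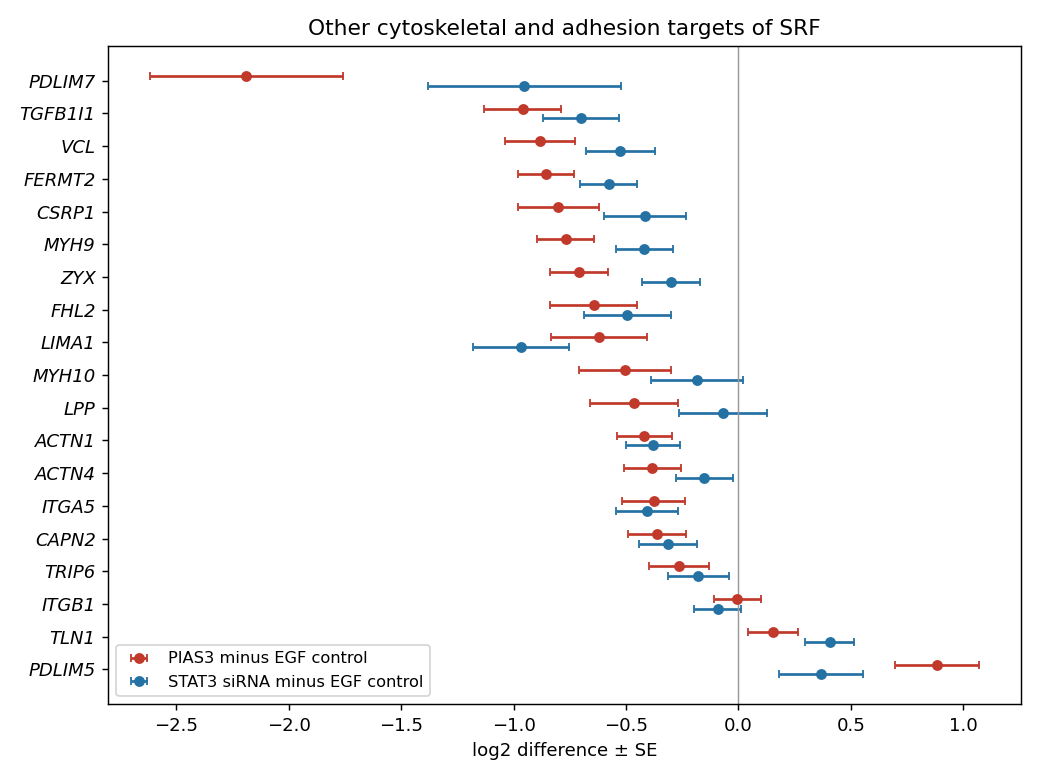
Log2 difference with standard error for the 19 other cytoskeletal and adhesion targets of SRF, PIAS3 minus EGF control in red and STAT3 siRNA minus EGF control in blue, ordered by the PIAS3 difference. PDLIM7 lies at -2.19 and PDLIM5 at 0.88 for PIAS3, and 17 of the 19 lie below 0 in each comparison.

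Family members and contractile partners were measured for 15 of 17. By unadjusted p, 6 were lower and 0 higher in PIAS3 minus control, beside 7.44% and 7.13% of all genes. That count depended on the array, and the median was -0.19 without PIAS3 replicate 1 and -0.33 without PIAS3 replicate 2. It was -0.23 without control replicate 1 and -0.26 without control replicate 2. In siRNA minus control 1 was lower and 0 higher, beside 3.06% and 2.32%, and in PIAS3 minus siRNA 1 was lower and 0 higher, beside 3.83% and 4.19%. The medians were -0.19, -0.14 and -0.11 in that order. TPM4, a tropomyosin of non-muscle cells, read 9.25 and 9.71 in the PIAS3 arrays, 10.35 and 10.12 in the siRNA arrays and 10.40 and 10.52 in the control arrays. It stood at -0.98 ± 0.17 for PIAS3 minus control and at -0.76 ± 0.17 for PIAS3 minus siRNA, and both PIAS3 arrays lay below all the others. CNN2 and CNN3, the calponins that are not restricted to smooth muscle, stood at -0.81 ± 0.21 and -0.92 ± 0.22 for PIAS3 minus control, at -0.45 ± 0.21 and -0.46 ± 0.22 for siRNA minus control, and at -0.36 ± 0.21 and -0.45 ± 0.22 for PIAS3 minus siRNA. CNN1, above, did not share that order. ACTC1, cardiac actin, stood at -0.26 ± 0.11 in siRNA minus control.

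Immediate early targets, which SRF reads with ternary complex factors, were measured for 8 of 9. All 8 were below 0 in siRNA minus control, where 3 were lower and 0 higher by unadjusted p, beside 3.06% and 2.32% of all genes, with a median of -0.61. In PIAS3 minus control 1 was lower and 1 higher, beside 7.44% and 7.13%, with a median of -0.29 that was -0.63 without PIAS3 replicate 1 and 0.41 without PIAS3 replicate 2. All 8 were above 0 in PIAS3 minus siRNA, where 1 was higher by unadjusted p, beside 4.19%, with a median of 0.54. That median was 0.02 without PIAS3 replicate 1, with 3 of the 8 below 0, so the direction rested on this array. By array, the median relative to control was 0.41 and -0.63 for PIAS3, beside -0.72 and -0.51 for siRNA. JUNB, an AP-1 subunit, read 10.83 and 10.28 in the PIAS3 arrays, 9.32 and 9.87 in the siRNA arrays and 9.95 and 9.70 in the control arrays. It stood at 0.73 ± 0.24 for PIAS3 minus control and at 0.96 ± 0.24 for PIAS3 minus siRNA. EGR1, a zinc finger factor, stood at -0.76 ± 0.29 in siRNA minus control, MCL1, an inhibitor of apoptosis, at -0.33 ± 0.19 for PIAS3 and -0.46 ± 0.19 for siRNA, and EGR3 at -0.88 ± 0.12 and -1.02 ± 0.12, although its low arrays are at the level of the absent-transcript control probe sets. In PIAS3 minus siRNA, IER2 stood at 0.45 ± 0.22 and NR4A1, an orphan nuclear receptor, at 0.71 ± 0.38.

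TAGLN and MYL9 were the only listed genes whose values spanned over 1 log2 unit across the 6 arrays (3.97 and 1.29), and the genes most like them were sought among all other genes by the root mean square difference of the profiles after each was centred on its own mean. Nearest to TAGLN were LYPD1 at 0.456, PDLIM7 at 0.509 and EFNB2, a membrane-bound ephrin ligand, at 0.545. LYPD1 read 6.02 and 6.80 in the PIAS3 arrays, 8.64 and 6.78 in the siRNA arrays and 8.25 and 8.23 in the control arrays, so it too was highest in siRNA replicate 1, with siRNA replicate 2 beside PIAS3 replicate 2. The nearest genes to MYL9 were BAAT, a bile acid conjugating enzyme, at 0.139, DPYD, which degrades pyrimidines, at 0.145 and HAS2, a hyaluronan synthase, at 0.150. MYL9 itself lay at 0.932 from TAGLN. Likeness over 6 arrays describes these arrays and no more.

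**Figure D5:**
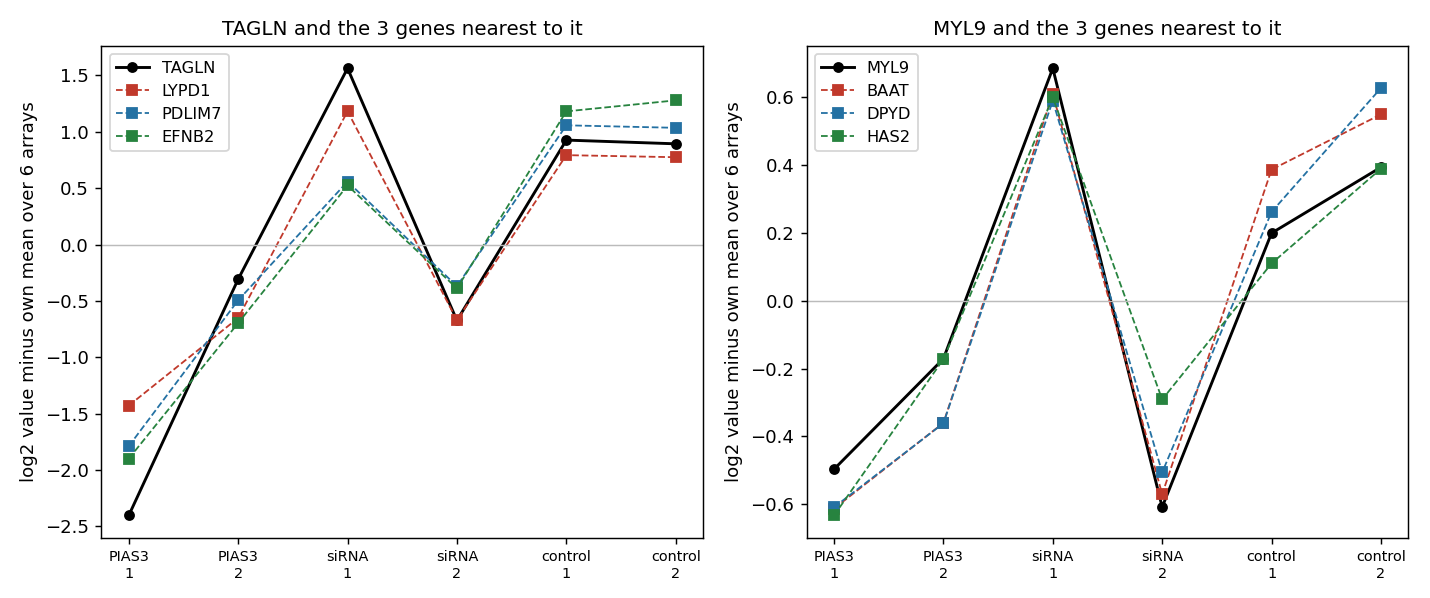
Log2 value minus the gene's own mean over the 6 arrays, by array, for TAGLN (left panel) and MYL9 (right panel) in black and the 3 genes nearest to each in colour. In both panels siRNA replicate 1 lies high and siRNA replicate 2 lies low with the PIAS3 arrays.

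Marker genes of other cell types were set beside these values. Of 9 smooth muscle markers 6 were measured, with a summed log2 level of 40.6 and 40.7 in the PIAS3 arrays, 40.9 and 40.04 in the siRNA arrays and 40.7 and 40.5 in the control arrays. By unadjusted p, 0 of the 6 differed in any of the 3 comparisons. All 10 fibroblast markers were measured, at 54.0 and 52.4 in the PIAS3 arrays, 53.9 and 52.9 in the siRNA arrays and 53.0 and 53.4 in the control arrays, again with 0 differing by unadjusted p. Of 6 endothelial markers 0 differed by unadjusted p in any comparison. Of 4 leukocyte markers measured 1, the monocyte marker CD14, was higher by unadjusted p. It stood at 0.84 in PIAS3 minus control and 0.74 in PIAS3 minus siRNA, where 7.13% and 4.19% of all genes were higher. Of 8 epithelial markers 7 were measured, at 70.0 and 70.9, 71.6 and 69.2, and 72.6 and 72.1 in the same order of groups. The keratins KRT7, KRT8 and KRT18, which were bright in every group, stood at -0.09, -0.05 and -0.03 for PIAS3 minus control. The rest of the 7 lay farther from 0 in that comparison and are given below. By unadjusted p, 1 of the 7 was lower and 1 higher in PIAS3 minus control, beside 7.44% and 7.13% of all genes. In siRNA minus control 2 were lower and 0 higher, beside 3.06% and 2.32%. In PIAS3 minus siRNA 1 was lower and 1 higher, beside 3.83% and 4.19%. KRT19, another epithelial keratin, stood at -1.91 ± 0.38 for PIAS3 minus control and -1.0006 ± 0.38 for siRNA minus control. CDH1, E-cadherin, stood at 1.09 ± 0.16 and 0.24 ± 0.16, EPCAM, an epithelial adhesion molecule, at -0.66 ± 0.32 and -0.65 ± 0.32, and CLDN4, a claudin of tight junctions, at -0.26 ± 0.15 and -0.45 ± 0.15 in the same order. None of the 7 passed the adjusted threshold, and their part in the results was not tested.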

How the data were processed

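Total RNA of A549 cells, on 2 arrays for each of 3 groups, was labelled with biotin and hybridised to Affymetrix arrays, per the labels' protocols. The authors deposited one log2 value per probe set and array. RMA is named in the submitters' processing notes; this method subtracts background, evens out the arrays and combines the probes of a set, and it can compress the differences of dim probe sets. For its version, the software and the genome build the sources used here name nothing. The number of arrays limits the precision. All 6 array columns were used, with medians of 6.63 to 6.72. Testing covered 22215 probe sets, without 62 array controls.

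From these values differences were computed with limma 3.58.1 (lmFit, then eBayes, two-sided) under R 4.3.3, in one fit of all 6 arrays with 1 mean per group, 3 residual and 4.27 prior degrees of freedom. The Benjamini-Hochberg adjustment ran over all 22215 probe sets, the threshold was 0.05, and errors are the standard errors of the fit. The fit was also run on simulated data with independent errors and, for each probe set, the same spread on every array. Those data held no array that stands apart, so they do not bear on values that rest on PIAS3 replicate 1. Gene symbols came from the platform annotation (19064 probe sets had 1 symbol, 1043 several, 2108 none). Promoters came from RefSeq.

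The 10 genes and the lists beside them were chosen with earlier results of these data known. All 10 are named, and from each list and comparison every gene past the threshold or otherwise the 3 with the smallest p. A result for 1 gene of these lists is not reported here. For a listed gene spanning over 1 log2 unit, the 3 genes with the nearest profile are named. Groups and replicate numbers came from the sample titles. Same-numbered arrays did not visibly deviate together (correlations of -0.05, 0.09 and -0.06 over probe sets). With 2 arrays a group and PIAS3 replicate 1 standing apart, this cannot exclude a pairing by number. The alternatives were a replicate block, renormalization, centring, a filter, array weights, an eBayes trend, 2 groups alone, averaging a gene's probe sets, another threshold and leaving out each array.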

Additional observations from a re-analysis of the deposited data

Results flagged for a closer look

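The poly-A spike-in control probe sets, which were no part of any comparison, read higher in PIAS3 replicate 1 than in the controls, with a median log2 difference of 1.411 over 24 probe sets. In the other PIAS3 array the median was -0.13, and in the siRNA arrays it was -0.36 and -0.23. These probe sets are added RNA and not transcripts of the cells.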

How the results depend on the processing

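Limits come first. With 2 arrays a group, 1 array can decide a value, and dim probe sets such as those of MYL9 carry little signal over background. Of 474 combinations of a gene's difference and an alternative, 11 changed sign and 2 newly passed the threshold, both MSN without PIAS3 replicate 2. The sign could not change with the replicate block, the filter, array weights, the eBayes trend, the 2 groups alone or the other threshold. These left each difference as it was, as did leaving out an array of a group outside the comparison. The count of 474 includes them. The filter kept 8 of the 10 genes, without MYL9 and CNN1. Protein identity between related genes was not run.

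In PIAS3 minus control, the count of all probe sets past the threshold was 22. It was 143 with array weights, 39 with cyclic loess, 2 with the filter, 262 with the 2 groups alone, 2 after quantile normalization again, 2 with the replicate block and 254 at an adjusted p of 0.10. Leaving out an array gave 0 to 1232, the highest without PIAS3 replicate 2. Of the related genes, 7 passed with array weights, 1 with cyclic loess, 1 with the trend, 4 with the 2 groups alone, 7 at an adjusted p of 0.10 and 0 to 15 without an array. The listed genes past the threshold numbered 0 to 1 and their median was -0.55 to -0.27 without an array. ACTA2 ranged between -0.15 and 0.41. The replicate block, which treats same-numbered arrays as belonging together, changed no call among the listed genes.

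In siRNA minus control, 1 probe set passed. It was 8 with array weights, where 1 related gene passed, 0 with cyclic loess, 3 with the 2 groups alone, 0 after quantile normalization again and 0 to 5 without an array. Without an array the listed genes' median was -0.38 to -0.0477, TAGLN -1.58 to 0.65, TAGLN2 -0.17 to 0.082, ACTG2 -0.0545 to 0.0286, TPM2 -0.29 to 0.0042 and MYL9 -0.90 to 0.39.

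In PIAS3 minus siRNA, leaving out an array gave 0 to 544 probe sets, 0 to 3 related genes and 0 to 1 listed genes past the threshold, with a median of -0.28 to -0.0657. TPM1 was 0.0008 with cyclic loess and -0.19 to 0.0155 without an array, MYL9 -1.02 to 0.27, and CALD1 -0.0108 by the mean of its probe sets and -0.0074 to 0.20 without an array. With 1 mismatch allowed in the core, chosen after seeing the data, 3 listed genes held a CArG box in place of 1. The causes of these shifts were not tested.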

Other observations

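The promoters of the genes in the 4 related lists were searched for the same CArG box. Of their 128 windows 16.4% held an exact box, in 18 of 64 genes, beside 1.29% of all windows in the table. Of the genes with a box, 14 had a probe set of their own, and 13 of these were below 0 in PIAS3 minus control, with a median of -0.39 and a range of -0.98 (TPM4) to 0.30 (ROCK2). Of the 43 measured genes with a window and no exact box, 32 were below 0, with a median of -0.25. In siRNA minus control 14 of the 14 and 28 of the 43 were below 0, with medians of -0.29 and -0.15. In PIAS3 minus siRNA 12 and 30 were below 0, with medians of -0.08 and -0.11, so the order of the medians was reversed. Of all 11963 genes, 6086, 6038 and 6028 were below 0 in these 3 comparisons. The difference between genes with and without a box was not tested. The lists hold genes that are known as SRF targets, so the share is not independent of how they were chosen.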
